A study of Homo sapiens with 12 samples.

Results

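This account sets the EZH2 inhibitor GSK126 directly against the pan-PI3K inhibitor GDC-0941, using the 3 libraries of the GSK arm and the 3 of the GDC arm out of 12 libraries in the series, over all gene symbols of the count files. The cells were C4.2B, an established castration-resistant human prostate cancer line, and polyadenylated RNA was sequenced. Cells of the GDC arm received 0.5 µM GDC-0941 for 24 h after 6 days with DMSO as vehicle. The GSK cells had 5 µM GSK126 through those 6 days and through the final 24 h, so neither dose nor length of exposure was matched, and the agent and its time cannot be told apart. Control cells (DMSO) had vehicle throughout, and COMBO cells had GSK126 on the GSK schedule with GDC-0941 in the final 24 h. All 4 arms were kept in 10% charcoal-stripped serum for the final day. Replicates A, B and C were plates of 1 line seeded in parallel, and p-values measure the spread between these plates alone.

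EZH2 is the catalytic subunit of Polycomb repressive complex 2 (PRC2), which trimethylates histone H3 at lysine 27 and holds developmental genes such as the HOX clusters silent. Because the mark is lost largely as cells divide, EZH2 inhibitors are usually given for days. PI3K makes the lipid that activates AKT, and AKT keeps FOXO transcription factors out of the nucleus. Blocking PI3K therefore releases FOXO and is known to raise genes for receptors that feed the pathway.

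The files listed 23228 gene symbols, 19009 had at least 1 count in the 6 libraries, and 14189 passed the filter on low counts and were tested. Reads in genes numbered 8785218 to 12116189 in GSK and 11764649 to 17022613 in GDC. Reads outside genes made up 18.8% ± 0.264 of the GSK libraries and 15.6% ± 0.268 of the GDC libraries (SD, n = 3), beside 14.2% ± 0.481 in DMSO, and their part in the differences below was not tested. In a principal component analysis of all 12 libraries, 79.84% of the variance was on the first component, which put GDC at -44.45 to -38.57 and GSK at 37.51 to 42.38. On this component DMSO was at -67.56 to -63.89 and COMBO at 61.39 to 69.26. Both single agents thus lay on the same side of DMSO, with GDC nearer to it. All 10 prostate luminal markers, among them KLK3, had more than 3 counts in each of the 6 libraries and summed to 4955 to 5086 counts scaled to library size (CPM) in GDC and 4760 to 5136 in GSK. The summed levels of 5 basal markers were 0.123 to 0.402 CPM in GDC and 1.19 to 1.32 in GSK, with KRT5 at 0 in all 6. Neuroendocrine markers summed to 10.9 to 11.8 CPM in GDC and 14.9 to 16.4 in GSK (9 genes, NEUROD1 at 0), endothelial markers to 4.56 to 7.07 and 5.76 to 6.26 (4 genes), and immune markers to 5.65 to 6.28 and 7.14 to 10.1 (5 genes, CD3E at 0). The 6 fibroblast markers summed to 11.1 to 14.4 CPM in GDC and 26.2 to 38.6 in GSK, most of it COL1A1, while COL1A2 had 0 counts in GDC and 1 count in GSK.

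The agents were told apart by most of the transcriptome. Of the 14189 genes, 9375 differed between GSK and GDC, which is 66.1% (adjusted p under 0.05 by edgeR's quasi-likelihood test with Benjamini-Hochberg adjustment). GSK was higher for 4629 genes (32.6%) and lower for 4746 (33.4%), and the 3 GSK and the 3 GDC values did not overlap for 9944 genes (70.1%), 9047 of them called. Sizes were unequal. The median log2 difference was 0.69 over the genes higher in GSK and -0.45 over those lower. A log2 difference of at least 1 was reached by 1563 higher genes (11%) and 394 lower genes (2.78%), a difference of at least 2 by 497 and 19, and a difference of at least 3 by 175 and 1. Among the 1563, 149 had 3 counts or fewer in every GDC library and so passed the filter through their level in other arms, while 3 of the 394 had that little in every GSK library. The split of calls depended on scaling. With library totals, 62.1% of calls were higher in GSK, compared with 49.4% under the trimmed mean of M-values (TMM), and the median difference over all genes was 0.13 rather than 0.013. Differences are given relative to TMM.

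**Figure D1:**
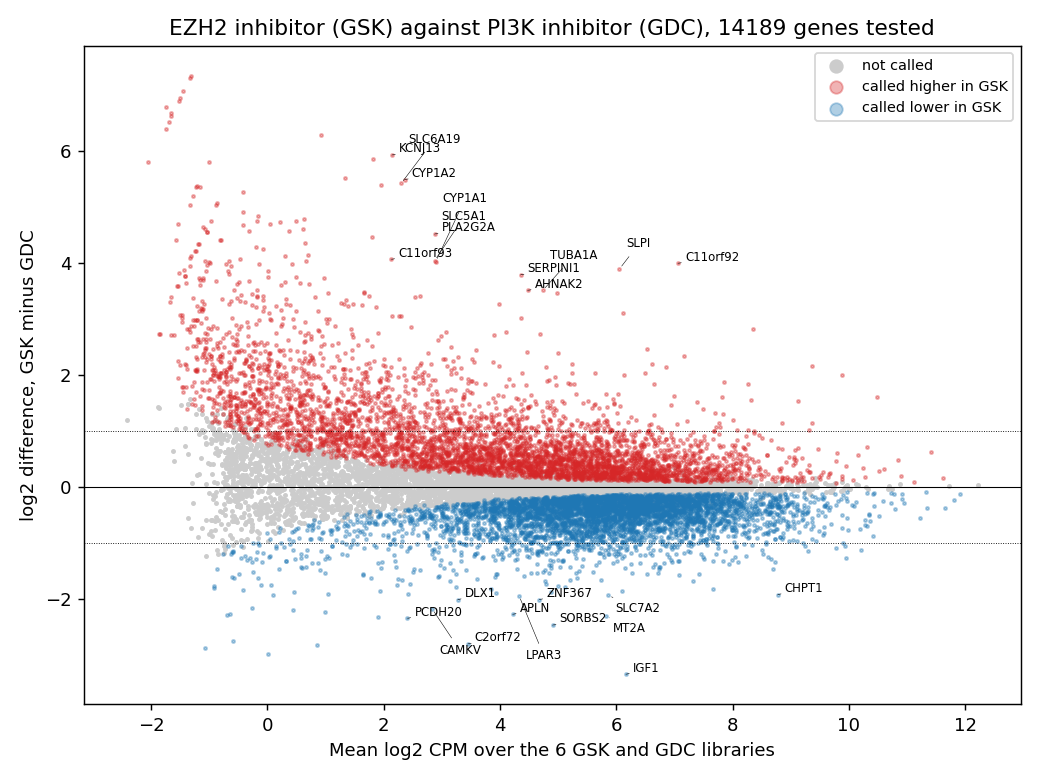
Each point is 1 of 14189 genes, with the mean log2 CPM over the 6 libraries on the x axis and the log2 difference GSK minus GDC on the y axis, and dotted lines at 1 and -1. Differences above 2 were reached by 497 called genes and differences below -2 by 19, and the 24 labelled genes are those with the largest differences among well-expressed genes whose libraries did not overlap.

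The position of each called gene against DMSO was also counted. Of all genes tested, 75.7% were called in GSK against DMSO and 40.1% in GDC against DMSO. Among the 4629 genes higher in GSK, 2742 were called against DMSO in GSK and not in GDC, 183 in GDC and not in GSK, 1369 in both with the same sign, 158 in both with opposite signs and 177 in neither. Among the 4746 genes lower in GSK the numbers were 2050, 310, 1979, 231 and 176. A call in one arm and not in the other does not itself show a difference, but each gene counted here was called in the direct comparison. Both comparisons with DMSO used the same 3 DMSO libraries.

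The largest differences in favour of GSK included transporters, detoxifying enzymes and secreted proteins, many of them low in GDC and in DMSO. KCNJ13, an inwardly rectifying potassium channel (chromosome 2, 232765802 to 232776565), was at 27.7, 34.7 and 33.4 CPM in GSK A, B and C and at 0.619, 0.678 and 0.268 in GDC, a log2 difference of 5.93 (SE 0.206, adjusted p = 7.68e-15). Its pooled counts gave a ratio of 62.4 (exact 95% counting interval 41.0 to 100, counting error only), and some of its exons overlap those of GIGYF2. SLC6A19, a carrier of neutral amino acids, was at 27.6, 35.7 and 28.2 CPM in GSK and 0.619, 0.924 and 0.536 in GDC, a log2 difference of 5.43 (SE 0.19, adjusted p = 8.76e-15). In both genes every GSK library lay far above every GDC library, and GDC was close to the DMSO mean of 0.639 for KCNJ13 and 0.937 for SLC6A19. SLC5A1, the sodium-glucose cotransporter SGLT1, stood at 25.2, 30.2 and 31.02 CPM in GSK and 2.03, 1.79 and 1.48 in GDC, a log2 difference of 4.05 (SE 0.173, adjusted p = 1.49e-13).

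CYP1A1 and CYP1A2 are neighbouring cytochrome P450 genes on chromosome 15, best known as targets of the aryl hydrocarbon receptor. CYP1A2 was at 25.8, 33.2 and 36.9 CPM in GSK and 0.972, 0.616 and 0.604 in GDC, a log2 difference of 5.50 (SE 0.187, adjusted p = 6.28e-15). CYP1A1 was at 27.7, 27.4 and 31.9 CPM in GSK and 2.298, 1.602 and 1.54 in GDC, a log2 difference of 4.03 (SE 0.132, adjusted p = 3.81e-15). The pair thus stood at like levels in all GSK libraries and was low in all GDC libraries, and as close paralogs they could share some reads. C11orf92 (COLCA1) and C11orf93 (POU2AF3) lie on opposite strands of the same stretch of chromosome 11. C11orf92 was at 534, 511 and 562 CPM in GSK and 30.9, 34.9 and 34.1 in GDC, a log2 difference of 4.001 (SE 0.0583, adjusted p = 1.56e-20), and unlike KCNJ13 it also stood above DMSO in GDC (9.51 CPM on average in DMSO). C11orf93 was at 19.01, 16.4 and 19.6 CPM in GSK and 0.442, 1.48 and 1.14 in GDC, a log2 difference of 4.07 (SE 0.2, adjusted p = 1.10e-12). How the files' counting used strand is not given in the sources used here, so reads of these overlapping genes cannot be told apart with certainty.

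Secreted proteins followed. SLPI, a secreted inhibitor of serine proteases, was at 256, 248 and 263 CPM in GSK and 18.6, 16.2 and 16.9 in GDC, a log2 difference of 3.90 (SE 0.0648, adjusted p = 1.01e-19). PLA2G2A, a secreted phospholipase, was at 30.4, 36.4 and 35.8 CPM in GSK and 1.77, 0.924 and 1.88 in GDC, a log2 difference of 4.52 (SE 0.162, adjusted p = 1.16e-14). SERPINI1, which encodes neuroserpin, was at 71.8, 79.9 and 74.9 CPM in GSK and 5.39, 4.87 and 6.102 in GDC, a log2 difference of 3.79 (SE 0.0853, adjusted p = 1.92e-17). None of these 3 genes had overlapping libraries. The last pair of the 12 largest were AHNAK2, a giant scaffold protein at 56.9, 67.3 and 105 CPM in GSK and 5.83, 6.098 and 8.05 in GDC (log2 difference of 3.52, SE 0.205, adjusted p = 1.34e-11), and the alpha-tubulin gene TUBA1A at 84.1, 92.4 and 91.4 and 8.31, 7.15 and 8.11 (log2 difference of 3.52, SE 0.0806, adjusted p = 1.97e-17). GSK C stood above the other GSK libraries for AHNAK2, and without it the difference was 3.22. TUBA1A has close paralogs and its annotated exons overlap those of TUBA1C, so its reads are uncertain.

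The largest differences in favour of GDC were smaller, and several were in genes that GDC moved above DMSO. IGF1, the growth factor that activates PI3K through its receptor (chromosome 12, 102395874 to 102481744), was at 25.7, 20.1 and 22.4 CPM in GSK and 218, 235 and 229.6 in GDC, a log2 difference of -3.34 (SE 0.0778, adjusted p = 2.29e-17). This was a 10.1-fold difference, and DMSO lay between the arms at 148 ± 9.99 CPM (SD, n = 3). C2orf72, a gene of unassigned function, was at 4.505, 3.71 and 4.07 CPM in GSK and 28.6, 28.7 and 27.5 in GDC, a log2 difference of -2.80 (SE 0.112, adjusted p = 5.12e-14). SORBS2, an adaptor of the actin cytoskeleton, was at 13.4, 12.2 and 12.7 CPM in GSK and 66.6, 75.5 and 67.5 in GDC, a log2 difference of -2.46 (SE 0.0845, adjusted p = 6.76e-15). In all 3 genes GDC was above and GSK below the DMSO mean.

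MT2A, a metal-binding metallothionein, was at 24.4, 24.2 and 28.5 CPM in GSK and 116, 154 and 108 in GDC, a log2 difference of -2.30 (SE 0.129, adjusted p = 7.68e-12). GDC B was the highest of the 6, and without it the difference was -2.11. The peptide hormone gene APLN (apelin) was at 8.35, 7.75 and 9.24 CPM in GSK and 40.1, 42.7 and 39.03 in GDC, a log2 difference of -2.27 (SE 0.0899, adjusted p = 4.80e-14), and for APLN the GDC values surrounded the DMSO mean of 41.04 CPM. The others of the 12 were PCDH20, a protocadherin, CAMKV, a relative of the calmodulin-dependent kinases, DLX1, a homeobox factor, ZNF367, a zinc finger protein, LPAR3, a receptor for lysophosphatidic acid, SLC7A2, a carrier of cationic amino acids, and CHPT1, an enzyme of phosphatidylcholine synthesis. Their differences ran from -2.34 for PCDH20 to -1.92 for CHPT1. CHPT1 was the most abundant of them, at 231, 223 and 224 CPM in GSK and 826, 870.0 and 858 in GDC, and SLC7A2 was at 29.8, 29.5 and 30.0 and 109, 112 and 119. CHPT1 exons overlap those of SYCP3.

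**Figure D2:**
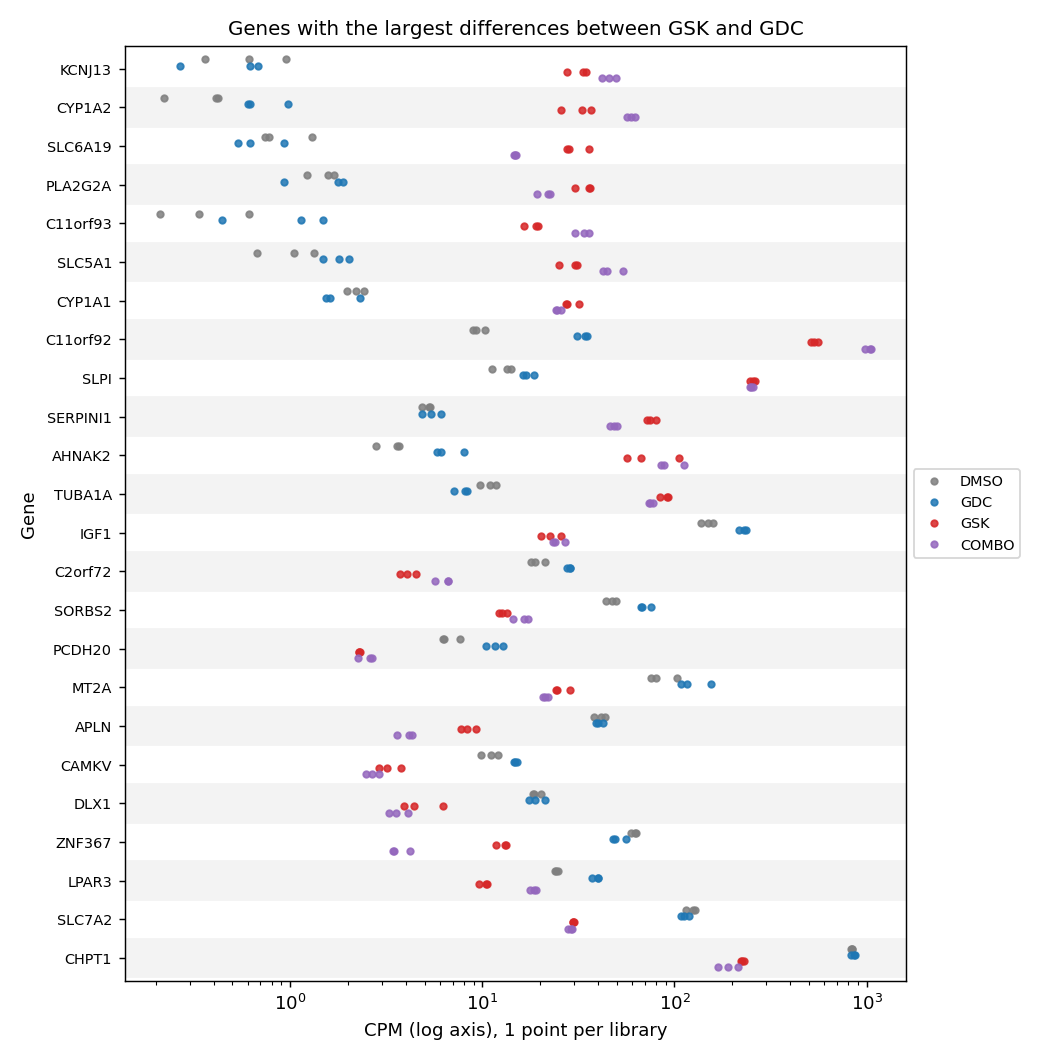
CPM on a log axis in each of the 12 libraries for the 12 genes with the largest positive and the 12 with the largest negative difference, with 1 point per library and 1 colour per arm. In every gene shown the 3 GSK points and the 3 GDC points are apart, and the COMBO points lie nearer to GSK than to GDC in log2 CPM.

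Genes moved in opposite directions were those called in the direct comparison and against DMSO in both arms, with GSK on one side of DMSO and GDC on the other. There were 158 with GSK above and GDC below DMSO (1.11% of genes tested) and 231 with GSK below and GDC above (1.63%). Because all 3 calls share libraries, these counts are descriptions of this design. Most of the opposite changes were small. The median change against DMSO was 0.47 in GSK and -0.29 in GDC for the first kind, and -0.36 in GSK and 0.25 in GDC for the second. Both changes reached 0.5 for 28 genes of the first kind and 18 of the second, and both reached 1 for 7 genes in all. The counts changed when single libraries were left out. Without DMSO C they were 90 and 143, without GDC B 134 and 139, and with DESeq2 169 and 150. DMSO C was the deepest DMSO library, with 44437751 reads in genes beside 10199514 in DMSO A and 19394959 in DMSO B. Leaving it out thus also removed depth.

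Among the 158 genes with GSK above and GDC below DMSO were signalling and stress genes. WNT5A, a ligand of the noncanonical Wnt pathway (chromosome 3, 55465715 to 55490539), was at 68.2, 74.5 and 77.5 CPM in GSK, 14.1, 13.2 and 14.3 in GDC and 27.9 ± 0.905 in DMSO (SD, n = 3). Its change was 1.39 in GSK and -1.01 in GDC, and the direct difference was 2.40 (SE 0.0699, adjusted p = 7.27e-16). SGK1, a kinase related to AKT that is itself activated downstream of PI3K (chromosome 6, 134169248 to 134318112), was at 19.3, 18.3 and 17.4 CPM in GSK, 1.86, 1.42 and 1.95 in GDC and 3.13 ± 0.301 in DMSO, with changes of 2.50 and -0.91. For both genes the DMSO mean fell in the gap between the arms. GBP2, an interferon-inducible GTPase, was at 12.4, 13.99 and 13.8 CPM in GSK and 1.94, 1.73 and 1.21 in GDC against 3.43 ± 1.15 in DMSO, with changes of 1.99 and -1.07, and its exons overlap those of GBP7.

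Another 7 genes of this kind were named. SDC2 (syndecan 2, a cell-surface proteoglycan) was at 21.9, 21.3 and 20.4 CPM in GSK and 3.62, 4.805 and 2.62 in GDC, and STC1 (stanniocalcin 1, a secreted glycoprotein) at 15.4, 14.7 and 15.0 and 6.81, 6.28 and 4.49. C17orf91, the noncoding host transcript MIR22HG, was at 7.36, 9.96 and 7.54 CPM in GSK and 2.12, 2.09 and 1.81 in GDC. HSPB8, a small heat shock protein, was at 8.901, 10.7 and 8.56 and 3.27, 2.402 and 3.15. The remaining 3 were PALMD (palmdelphin), RASL11A (a small GTPase of the Ras family) and ACTA2 (smooth muscle actin), with changes of 0.74, 0.81 and 0.61 in GSK and -0.67, -0.60 and -0.65 in GDC. ACTA2 exons overlap those of FAS. Adjusted p-values in GDC against DMSO were the weaker side for most, at 0.014 for ACTA2 and 0.016 for SDC2. Of the 20 named opposite genes of both kinds, 16 were opposite under all 16 alternatives, and ACTA2 lost a call under 3 of them, SDC2 and MT1F under 2 and HNF4G under 1.

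Among the 231 genes with GSK below and GDC above DMSO, IGF1 had the largest direct difference, with changes of -2.72 in GSK and 0.61 in GDC. MT1F, another metallothionein, was at 4.83, 5.06 and 5.17 CPM in GSK, 12.6, 22.98 and 11.7 in GDC and 9.28 ± 3.36 in DMSO (SD, n = 3). GDC B was again the highest, the direct difference of -1.67 was -1.26 without it, and MT1F then was no longer called against DMSO in both arms. Metallothioneins are near-identical copies, so reads may be split between them. MT2A changed by -1.72 in GSK and 0.57 in GDC.

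The other named genes of this kind encode receptors, adhesion molecules, a ligand and an enzyme. LPAR3 was at 10.4, 10.6 and 9.58 CPM in GSK, 39.9, 37.4 and 39.8 in GDC and 24.2 ± 0.488 in DMSO, with changes of -1.25 and 0.68. CNTN5, a contactin of neural cell adhesion, was at 8.13, 8.46 and 9.07 CPM in GSK and 23.9, 26.4 and 27.8 in GDC, with changes of -0.68 and 0.93. ADCK3 (COQ8A), which acts in coenzyme Q synthesis, was at 80.0, 83.2 and 72.3 CPM in GSK and 233, 239 and 227 in GDC, with changes of -0.95 and 0.62. The arms did not overlap for any of these genes, and in each the DMSO mean lay between them. The Wnt ligand WNT8B was at 2.198, 3.32 and 2.54 and 8.75, 10.6 and 11.2 CPM, PCDH20 at 2.31, 2.29 and 2.29 and 10.4, 11.6 and 12.7, and HNF4G, a nuclear receptor of the HNF4 family, at 2.86, 3.16 and 2.29 and 7.78, 6.59 and 8.05. SORBS2 changed by -1.89 in GSK and 0.57 in GDC.

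MYC and HIF1A, transcription factors that the study examined, were opposite in different directions. MYC, which drives growth and ribosome production, was at 188, 174 and 156 CPM in GSK, 437, 431 and 437 in GDC and 254 ± 8.01 in DMSO (SD, n = 3). It was lower in GSK than in GDC by -1.33 on the log2 scale (SE 0.0528, adjusted p = 4.80e-14), a 2.52-fold difference, with changes of -0.56 in GSK and 0.78 in GDC. HIF1A, the oxygen-regulated factor, was at 287, 313 and 307 CPM in GSK and 193, 201 and 207 in GDC, a log2 difference of 0.60 (SE 0.0496, adjusted p = 2.41e-09). MYC and HIF1A each kept their opposite calls under all 16 alternatives, and HIF1A has 1 named pseudogene.

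**Figure D3:**
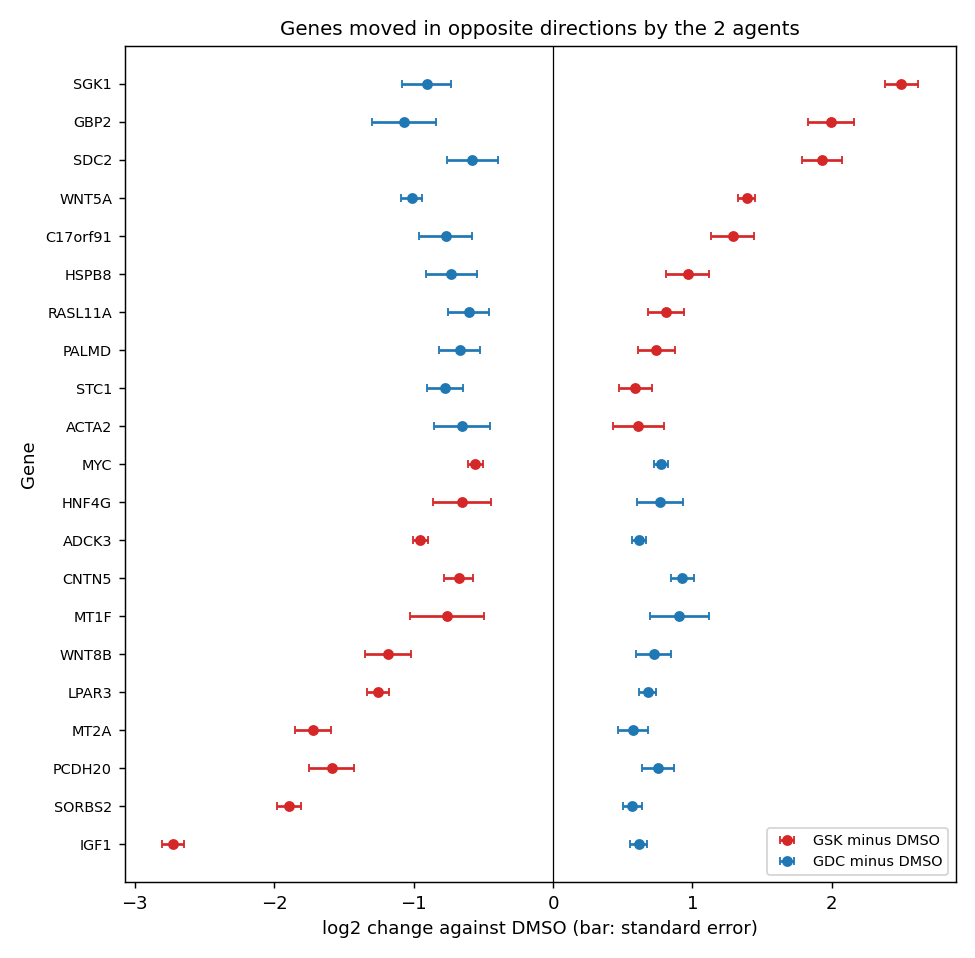
Log2 change against DMSO in GSK (red) and GDC (blue) for the 20 named opposite genes and MYC, with bars for the standard error of the edgeR fit. Each gene has its GSK and GDC points on opposite sides of 0, and both changes use the same 3 DMSO libraries.

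Of the other genes that the study discusses, EZH2 itself was at 55.7, 57.1 and 56.02 CPM in GSK and 89.6, 76.5 and 79.3 in GDC, a log2 difference of -0.53 (SE 0.059, adjusted p = 1.35e-07). Its transcript does not report on enzyme activity, and EZH2 has 1 named pseudogene. BMF, a proapoptotic member of the BCL-2 family (chromosome 15, 40087890 to 40108892), was at 95.8, 103 and 105 CPM in GSK and 23.8, 24.5 and 24.9 in GDC, a log2 difference of 2.05 (SE 0.0614, adjusted p = 9.44e-16), a 4.14-fold difference with no overlap. HK2, the hexokinase that starts glycolysis, was at 41.1, 37.8 and 43.6 CPM in GSK and 84.8, 81.1 and 89.7 in GDC, a log2 difference of -1.06 (SE 0.0684, adjusted p = 5.48e-11). The glucose transporter SLC2A1 (GLUT1) was at 47.4, 46.95 and 40.8 CPM in GSK and 57.7, 59.5 and 56.1 in GDC, a log2 difference of -0.36 (SE 0.0595, adjusted p = 2.19e-05). The stress factor ATF3 was at 17.4, 18.7 and 19.9 CPM in GSK and 13.3, 14.8 and 13.3 in GDC, a log2 difference of 0.43 (SE 0.0924, adjusted p = 0.000388). Thus GSK lay below GDC for EZH2, HK2 and SLC2A1 and above it for BMF and ATF3. Against DMSO, EZH2, HK2 and SLC2A1 were lower in both arms. Their changes were -0.89, -1.47 and -0.77 in GSK and -0.36, -0.40 and -0.41 in GDC. BMF was higher than DMSO in both arms, by 2.74 in GSK and 0.69 in GDC. ATF3 was not called against DMSO in GSK (0.09) and was lower in GDC (-0.34).

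Gene lists were then described by the number of members called in each direction beside the 32.6% higher and 33.4% lower of all genes tested, whose median difference was 0.013. Lists were written with earlier results of these data known, and no list was tested as a set. The strongest one-sided lists belonged to proliferation. All 34 DNA replication genes were lower in GSK than in GDC, with a median of -1.13 and a range of -1.65 to -0.47. MCM10, which starts replication forks, was at 31.5, 27.5 and 31.2 CPM in GSK and 92.98, 98.3 and 90.1 in GDC, a log2 difference of -1.65 (SE 0.0637, adjusted p = 3.71e-14). ORC1, a subunit of the origin recognition complex, was at 19.6, 17.6 and 16.5 and 47.9, 49.9 and 47.2, and CDC45, part of the replicative helicase, at 24.7, 21.2 and 22.03 and 60.5, 63.4 and 56.3. Both arms were below the DMSO means of 137, 66.4 and 73.95 CPM, so these genes differed in size rather than in sign, and the median change of the list against DMSO was -1.42 in GSK and -0.32 in GDC.

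Of 29 mitosis genes, 28 were lower in GSK and 1 was not called, with a median of -0.54. The spindle checkpoint gene MAD2L1 was at 42.3, 36.5 and 37.3 CPM in GSK and 89.7, 106 and 97.3 in GDC, a log2 difference of -1.34 (SE 0.0761, adjusted p = 8.46e-12). KIF11, a spindle motor, and AURKB, a mitotic kinase, differed by -0.88 and -0.88. The medians of the mitosis list against DMSO were -1.06 in GSK and -0.52 in GDC. All 26 ribosome biogenesis genes were lower in GSK, with a median of -0.92. TCOF1, which acts in rRNA transcription, was at 68.1, 63.9 and 61.8 CPM in GSK and 181, 178 and 171 in GDC, a log2 difference of -1.45 (SE 0.056, adjusted p = 3.54e-14), while RRS1 and NOLC1 differed by -1.19 and -1.19. In contrast, of 77 cytosolic ribosomal protein genes tested, 9 were higher, 16 lower and 52 not called, and their median of -0.017 became 0.10 with library totals.

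Promoters of the replication genes were searched for letters of E2F sites (TTTCCCGC or TTTGGCGC on either strand) in the RefSeq window from 250 bases before to 50 after the start (GRCh38.p14). Of 34 genes 31 were matched, and 16 of these (51.6%) held such letters, compared with 631 of 27305 promoters of the table (2.31%) and 388 of the 10768 tested genes that were matched (3.6%). The latter are 75.9% of the genes tested, and shares over the large call lists are not given because of the genes unmatched. Upstream stretches of ZNF367 and of 2 replication genes with large differences are shown because each holds the letters close to the start. IGF1 is shown for the 1 forkhead match in its upstream window (TGTTTAC, on the opposite strand). These letters were held by 931 promoters of the table (3.41%) and by 240 of the tested genes that were matched (2.23%). The upstream windows of ACTA2, HOXC4 and BCL2L11 held them too, and these genes were higher in GSK than in GDC, unlike IGF1. Matches are in capitals, each stretch ends at the base before the start, and a match does not show that a factor bound there.
ZNF367 (chr9:96418371-96418470, minus strand): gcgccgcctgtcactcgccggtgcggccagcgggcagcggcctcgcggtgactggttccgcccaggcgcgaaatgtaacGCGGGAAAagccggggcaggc
RFC3 (chr13:33818049-33818148, plus strand): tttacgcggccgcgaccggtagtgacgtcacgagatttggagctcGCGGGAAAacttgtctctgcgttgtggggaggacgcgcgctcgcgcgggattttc
CDT1 (chr16:88803689-88803788, plus strand): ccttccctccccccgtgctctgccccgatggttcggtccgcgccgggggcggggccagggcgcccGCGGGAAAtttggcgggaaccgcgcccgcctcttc
IGF1 (chr12:102481748-102481997, minus strand): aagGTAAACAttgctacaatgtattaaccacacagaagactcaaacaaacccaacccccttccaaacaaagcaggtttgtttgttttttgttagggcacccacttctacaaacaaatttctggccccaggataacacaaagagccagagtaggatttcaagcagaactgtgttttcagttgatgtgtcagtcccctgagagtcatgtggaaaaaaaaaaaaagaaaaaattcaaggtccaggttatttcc
ZNF367 differed by -2.00, with 13.2, 13.3 and 11.8 CPM in GSK and 48.9, 55.8 and 48.1 in GDC. RFC3, a subunit of the clamp loader, differed by -1.42 (SE 0.0605, adjusted p = 1.49e-13), and CDT1, a licensing factor, by -1.39 (SE 0.0781, adjusted p = 7.76e-12).

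Metabolic lists leaned the same way with smaller medians. Of 23 glycolysis and lactate genes tested, 16 were lower in GSK and 2 higher, with a median of -0.30. The lactate carrier SLC16A1 was at 118, 110.2 and 109 CPM in GSK and 222, 235 and 225 in GDC, and lactate dehydrogenase LDHA (6 named pseudogenes) at 547, 538 and 557 and 946, 952 and 906, differences of -1.02 and -0.77. The neuronal enolase ENO2 was higher in GSK, by 0.39. Of 27 TCA cycle genes, 22 were lower and 4 higher (median -0.27), led by DLAT of the pyruvate dehydrogenase complex at 152, 142 and 148 and 305, 333 and 299.7 CPM. Of 44 oxidative phosphorylation genes, 26 were lower and 5 higher, with a median of -0.14 that was -0.025 with library totals. Cytochrome c (CYCS) differed by -0.74 and has 42 named pseudogenes, so its reads are uncertain.

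Amino acid and sterol genes were also mostly lower in GSK. Among 20 targets of ATF4, the factor of the amino acid response, 12 were lower and 5 higher (median -0.46). PSAT1 of serine synthesis was at 104, 100.2 and 97.6 CPM in GSK and 301, 295 and 284 in GDC, a log2 difference of -1.54 (SE 0.0467, adjusted p = 1.08e-15). The mitochondrial folate enzyme MTHFD2 was at 67.7, 61.2 and 57.7 and 176, 185 and 176, and the cystine carrier SLC7A11 at 43.3, 40.2 and 46.4 and 113, 115 and 124. These 3 genes were below DMSO in both arms and further below it in GSK, and PSAT1 and MTHFD2 have 4 and 7 named pseudogenes. Of 23 sterol genes, 18 were lower and 3 higher (median -0.45), with SQLE at -0.77 and IDI1 at -0.76, and TM7SF2, a sterol reductase, higher by 0.97.

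FOXO targets leaned towards GSK in the direct comparison but did not move as a block. Of 16 tested, 10 were higher in GSK (62.5%) and 5 lower (31.2%), with a median of 0.27. Against DMSO the list's median change was positive in both arms, at 1.09 in GSK and 0.58 in GDC. The stress-induced sestrins SESN1 and SESN3 were higher in GSK, SESN1 at 282, 290.1 and 281 CPM against 93.4, 101 and 102 in GDC (log2 difference of 1.52, SE 0.0554, adjusted p = 1.48e-14) and SESN3 at 214, 224 and 234 against 70.3, 67.1 and 78.8. IRS2, the adaptor that links insulin and IGF1 receptors to PI3K, went the other way, at 16.04, 12.5 and 15.2 CPM in GSK and 31.5, 34.7 and 35.01 in GDC, a log2 difference of -1.23 (SE 0.0953, adjusted p = 8.50e-10). The insulin receptor gene INSR was also lower in GSK, with a difference of -0.48 (SE 0.0606, adjusted p = 8.30e-07). Against DMSO, SESN1, SESN3 and IRS2 rose in both arms. Their changes were 2.15, 2.11 and 0.32 in GSK and 0.63, 0.47 and 1.55 in GDC, so these genes differed in size rather than in sign. INSR changed by 0.53 in GDC against DMSO, and its value in GSK was 0.048 (adjusted p = 0.482).

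Among 18 receptor and adaptor genes upstream of PI3K, 9 were higher and 8 lower in GSK. The growth factor IGF1 was lower in GSK than in GDC, and the binding proteins IGFBP3 and IGFBP5 were higher. IGFBP3 was at 109, 99.1 and 109 CPM in GSK and 8.66, 7.70 and 12.1 in GDC, a log2 difference of 3.47 (SE 0.117, adjusted p = 5.60e-15). IGFBP5 was at 24.8, 25.1 and 26.02 and 4.33, 5.91 and 5.03, a log2 difference of 2.29 (SE 0.107, adjusted p = 5.62e-13). The receptor gene IGF1R was lower in GSK, with a difference of -0.43 (SE 0.0812, adjusted p = 0.000107). The adaptor gene IRS1 was higher, with a difference of 0.33 (SE 0.0709, adjusted p = 0.000369). Of the binding proteins for IGFs, IGFBP3 and IGFBP5 were the members of this list. Against DMSO, IGFBP3, IGFBP5, IGF1R and IRS1 were higher in both arms. Their changes were 3.95, 3.11, 0.37 and 0.71 in GSK and 0.48, 0.81, 0.80 and 0.38 in GDC. These genes thus differed in size rather than in sign. ERBB2 was higher in GSK than in GDC by 0.79 (SE 0.0499, adjusted p = 3.98e-11), and above DMSO by 1.16 in GSK and 0.37 in GDC. MET was higher in GSK by 1.43 (SE 0.234, adjusted p = 2.21e-05), and was an opposite gene with changes of 0.76 in GSK and -0.67 in GDC.

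ERK feedback genes report on the MAPK pathway. Of 13 tested, 5 were higher in GSK (38.5%), 3 lower (23.1%) and 5 not called, with a median of 0.44. With 32.6% of all genes tested higher and 33.4% lower, these counts are not read as a result on the pathway. The phosphatase gene DUSP5 was higher by 3.49 (SE 0.213, adjusted p = 2.54e-11), at a mean of 10.0 CPM in GSK and 0.897 in GDC. DUSP4 was lower, at 16.1, 16.8 and 13.6 CPM in GSK and 28.7, 27.2 and 25.2 in GDC, a log2 difference of -0.80 (SE 0.0897, adjusted p = 1.76e-07), and so were SPRY1 (-0.75) and PHLDA1 (-0.67). Against DMSO, DUSP4 was not called in GSK (-0.013) and was higher in GDC (0.78). DUSP5 and SPRY1 were opposite genes, with changes of 2.41 and -0.46 in GSK and -1.08 and 0.29 in GDC.

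Lists tied to chromatin moved towards GSK for HOX genes and away from it for PRC2 subunits. Of 39 HOX cluster genes, 24 were tested, 16 were higher in GSK and 4 lower, with a median of 0.68, and the 15 untested genes held 36 counts in all GSK libraries and 16 in all GDC libraries. HOXC4 was at 19.6, 24.98 and 20.6 CPM in GSK and 3.36, 5.05 and 4.36 in GDC, a log2 difference of 2.33 (SE 0.143, adjusted p = 2.93e-11). HOXC13 was at 74.7, 91.5 and 88.1 and 31.2, 29.5 and 35.1, and HOXC9 at 47.6, 46.7 and 47.7 and 17.9, 17.9 and 17.6. HOXC4 and HOXC9 share annotated exons with HOXC6, so their reads are uncertain. The 4 lower genes included HOXA5, by -0.81 (SE 0.116, adjusted p = 4.11e-06), and the prostate factor HOXB13. Of 13 PRC2 genes, 10 were lower in GSK and 2 higher (median -0.42), with PHF19 at 7.36, 7.11 and 9.07 CPM in GSK and 16.9, 18.5 and 18.2 in GDC, AEBP2 at 51.3, 48.7 and 51.1 and 84.1, 87.9 and 90.5, and JARID2 in the other direction at 87.9, 92.1 and 88.9 and 52.8, 46.1 and 52.4. The core subunit gene SUZ12 differed by -0.77 (SE 0.0737, adjusted p = 1.88e-08).

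Immune and lysosomal lists were mostly higher in GSK. Of 37 interferon-stimulated genes tested, 28 were higher and 4 lower, with a median of 0.70. Several of the largest members were low in level, such as XAF1 at a mean of 0.733 CPM in GSK and 0.0518 in GDC and GBP3 at 2.52 and 0.197, while the viral RNA sensor DDX58 (RIG-I) was at 12.6, 14.5 and 15.3 CPM in GSK and 6.45, 7.45 and 6.44 in GDC. IFITM1, a restriction factor of virus entry, was lower in GSK, at 3.74, 3.48 and 3.22 against 6.89, 7.95 and 7.91. Of 19 MHC class I and antigen processing genes, 13 were higher and 2 lower (median 0.56), with HLA-B at 85.9, 83.8 and 84.1 CPM in GSK and 39.6, 38.5 and 40.6 in GDC and HLA-E at 38.1, 44.4 and 39.1 and 21.7, 17.8 and 20.5. HLA genes are close copies of each other and their reads are uncertain. Of 36 autophagy and lysosome genes, 24 were higher and 6 lower (median 0.41), among them the lysosomal sialidase NEU1 (82.3, 90.1 and 83.3 and 37.6, 36.9 and 36.8 CPM) and the protease CTSD (465, 459 and 457 and 232, 234 and 242).

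**Figure D4:**
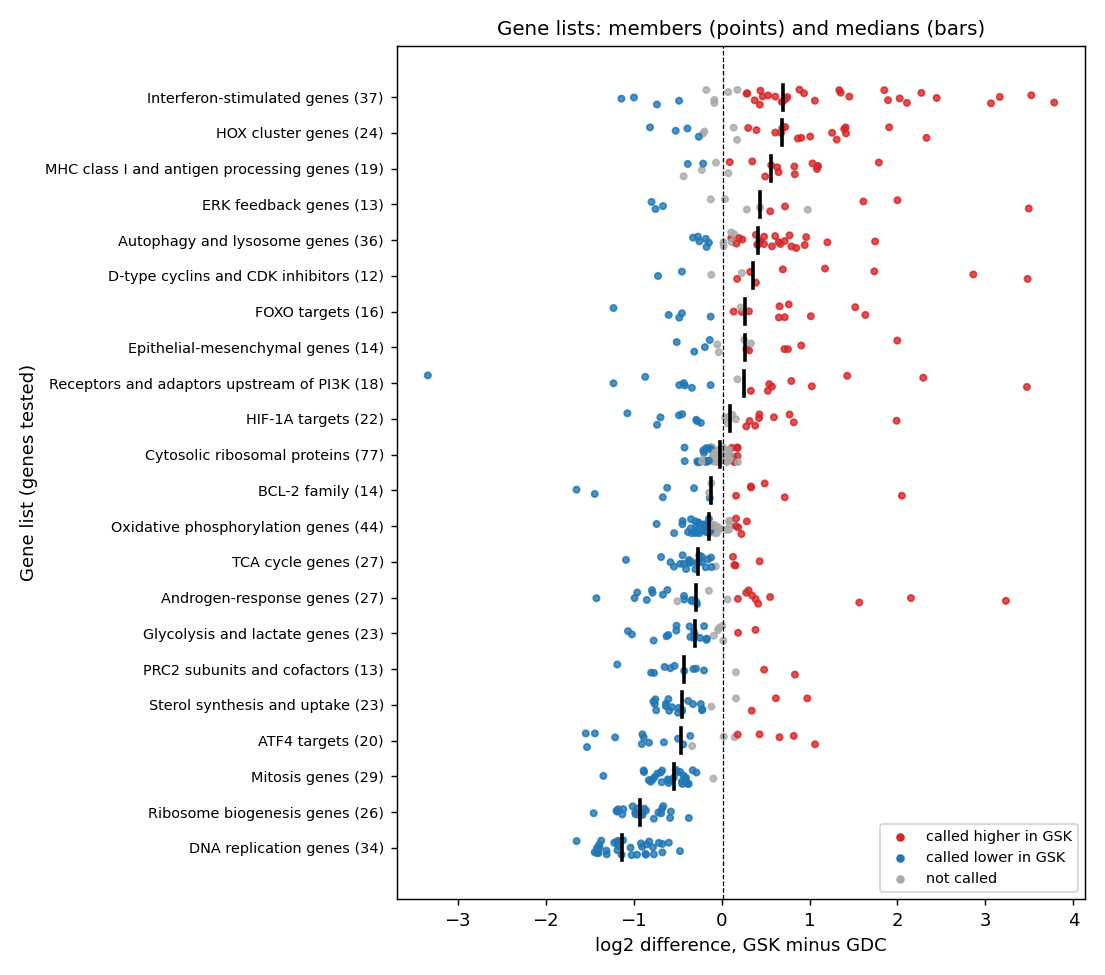
Log2 difference GSK minus GDC for the tested members of 22 gene lists, with 1 point per gene coloured by its call, a black bar at each list's median and a dashed line at the median of all genes tested (0.013). All members of the DNA replication and ribosome biogenesis lists lie left of 0, and the interferon-stimulated list has the highest median, at 0.70.

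Cell death and cell cycle regulators were mixed. Of 14 BCL-2 family genes tested, 6 were higher and 6 lower in GSK. Beside BMF, the activator BCL2L11 (BIM) was higher, at 98.3, 106 and 103 CPM in GSK and 65.6, 59.3 and 62.4 in GDC. PMAIP1 (NOXA) was lower, at 3.19, 2.77 and 2.29 and 8.57, 8.44 and 8.58, and BBC3 (PUMA) was lower by -1.44 (SE 0.169, adjusted p = 3.08e-07). Thus BMF and BCL2L11 were higher and PMAIP1 and BBC3 lower in GSK than in GDC, and all 4 encode proapoptotic BH3-only proteins. Against DMSO, PMAIP1 was lower in both arms, with changes of -2.42 in GSK and -0.77 in GDC. BMF (2.74 and 0.69) and BCL2L11 (0.85 and 0.13) were above DMSO in both arms. Of 12 D-type cyclin and CDK inhibitor genes, 8 were higher in GSK and 2 lower. The CDK inhibitor CDKN1A (p21) was at 108, 113 and 110.2 CPM in GSK, 49.2, 49.96 and 47.2 in GDC and 82.4 ± 5.05 in DMSO, and was thus an opposite gene with changes of 0.43 and -0.75. CDKN1C (p57) was at 16.9, 18.7 and 15.5 and 4.15, 5.11 and 5.901, a log2 difference of 1.74 (SE 0.134, adjusted p = 7.90e-10). CDK4 was lower in GSK, at 157, 149 and 152 and 252, 252 and 252, and shares annotated exons with TSPAN31.

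Of 27 androgen-response genes, 10 were higher and 14 lower in GSK. The prostatic acid phosphatase gene ACPP (ACP3) was at 226, 251 and 253 CPM in GSK and 56.9, 50.6 and 56.9 in GDC, a log2 difference of 2.15 (SE 0.0602, adjusted p = 4.45e-16), while CENPN, a centromere protein gene, was at 68.2, 59.4 and 68.8 and 175, 187 and 164, a log2 difference of -1.42 (SE 0.0736, adjusted p = 2.49e-12). CENPN exons overlap those of CMC2, and it has 2 named pseudogenes. ACPP was above its DMSO mean of 28.1 CPM in both arms. Of 22 HIF-1A targets, 9 were higher and 8 lower (median 0.10), with the mTOR inhibitor gene DDIT4 at 104, 109 and 99.9 CPM in GSK and 57.5, 60.8 and 59.1 in GDC and the kinase gene PDK1 at 35.4, 32.2 and 32.9 and 69.3, 72.3 and 68.5. Of 14 epithelial-mesenchymal genes, 6 were higher and 4 lower (median 0.27), and fibronectin FN1 was at 1764, 1694 and 2206 CPM in GSK and 445, 459.7 and 513 in GDC, a log2 difference of 1.998 (SE 0.0789, adjusted p = 4.78e-14). Among the fibroblast markers COL1A1 was at 29.7, 36.8 and 24.4 and 13.7, 10.8 and 11.1 CPM, a log2 difference of 1.37 (SE 0.176, adjusted p = 1.06e-06).

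The COMBO libraries, which entered the filter, the scaling and the estimate of spread but no contrast above, were placed between or beyond the single agents by their mean log2 CPM. For the 9375 called genes, COMBO lay between GDC and GSK for 33% and beyond GSK for 61.5%, and it was nearer to GSK for 86.3%. For the opposite genes it lay between the agents for 70.9% of the 158 with GSK above and 71.9% of the 231 with GSK below. Among these 231, COMBO was beyond GSK for 26.8% and beyond GDC for 1.3%. These shares are descriptions with no test. Opposite genes were chosen with GSK and GDC on opposite sides of DMSO, so a sum of both changes would fall between the agents. The selection alone thus favours that position, and their shares cannot be compared with the 33%. Of the named genes, IGF1 was at 24.7 ± 1.84 CPM in COMBO (SD, n = 3), close to GSK, while MYC was at 291 ± 4.51, between the arms. WNT5A stayed near GSK at 69.5 ± 3.12 and HSPB8 was at 4.11 ± 0.854, nearer to GDC. MCM10 was below both agents, at 3.81 ± 0.409 CPM.

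**Figure D5:**
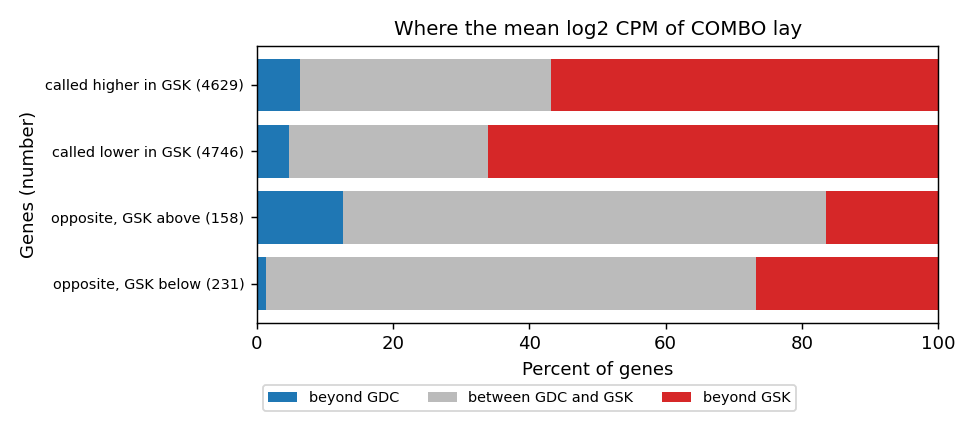
Share of genes, in percent, for which the mean log2 CPM of the 3 COMBO libraries lay beyond GDC, between GDC and GSK or beyond GSK, for genes called higher or lower in GSK and for both kinds of opposite genes. COMBO lay beyond GSK for 56.9% of genes higher and 66% of genes lower in GSK, and between the agents for 70.9% and 71.9% of opposite genes. The rule for opposite genes itself favours a place between the agents.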

How the data were processed

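The authors used STAR for alignment to hg38 and HTSeq for counting (versions, annotation and use of strand are not given in the sources used here). The deposited counts are unnormalized read numbers for each gene symbol. The 5 summary lines of each file entered neither library sizes nor tests. A deposited table of DESeq2-normalized values was not used. No column of per-sample values was left unmapped (0).

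All 12 libraries entered 1 edgeR 4.0.16 fit (R 4.3.3, limma 3.58.1) with 1 coefficient per arm, TMM scaling, filterByExpr and no covariate. Contrasts were tested two-sided by quasi-likelihood, with Benjamini-Hochberg adjustment over 14189 genes and a threshold of 0.05. The common biological coefficient of variation was 0.0499. CPM used TMM-scaled totals, and standard errors are the log2 difference over the root of the F statistic. A library count of 3 equals 0.0722 to 0.329 CPM. Intervals cover counting error only. Over the library pairs within all 4 arms, chi-square over degrees of freedom was 1.80 to 6.495, so no pair agreed within sampling noise.

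Named genes were the 12 largest differences each way and the 10 genes of each opposite kind with the largest smaller change (mean log2 CPM of at least 2, no overlap of GSK and GDC), 7 genes of the study, and up to 3 called members per list. Members and lists were chosen with earlier results of these data known. GENCODE 44 placed 92.4% of symbols on hg38, with older symbols matched through RefSeq synonyms. The alternatives, 16 in all, were DESeq2 1.42.0, library totals, size factors of DESeq2 in edgeR, a minimum mean of 1 CPM, no filter on low counts, a replicate block, fits restricted to the compared arms, and fits without each GSK, GDC or DMSO library. The scripts were tested on simulated data.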

Additional observations from a re-analysis of the deposited data

Results flagged for a closer look

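Reads that fell outside annotated genes, which enter no comparison above, made up a larger share in both single-agent arms than in DMSO, at 18.8% ± 0.264 in GSK, 15.6% ± 0.268 in GDC and 14.2% ± 0.481 in DMSO (SD, n = 3). The GSK libraries ranged from 18.5% to 18.9%, the GDC libraries from 15.2% to 15.7% and the DMSO libraries from 13.7% to 14.6%, with no overlap. Their origin was not tested.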

How the results depend on the processing

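The counts of genes higher in GSK, lower in GSK and with an absolute log2 difference of at least 1 stayed within 1.5 times of 4629, 4746 and 1957 under all 16 alternatives. Without 1 library they ran from 4225 to 4639, from 4397 to 4773 and from 1869 to 2000. With library totals they were 5914, 3609 and 2107, and 31 of the 8238 genes called under both scalings had the other sign. The counts of opposite genes were less stable. DESeq2 gave 150 genes with GSK below and GDC above, of which 137 were among the 231. Without 1 library, that count ran from 139 (without GDC B) to 223, and the count with GSK above and GDC below ran from 90 (without DMSO C) to 184. The cause was not tested. All named genes kept the direction and call of their direct difference under every alternative. List medians moved by more than the spread between replicates in 40 of 447 comparisons, 19 of them with library totals, and the cytosolic ribosomal protein median changed sign.

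The letters A, B and C showed no strong pairing of the samples. Deviations from the arm means correlated between same-letter GSK and GDC libraries by 0.0069, -0.0158 and 0.0668 (across genes). With the replicate block, 4607 genes were higher, 4709 lower, and 153 and 216 were opposite. Depth limits the low genes, since 149 of 1563 strongly higher genes had 3 counts or fewer in every GDC library.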
